A study of Caenorhabditis elegans with 6 samples.

Results

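The methionine cycle and the synthesis of phosphocholine were followed through 10 genes of the nematode *Caenorhabditis elegans*, in animals given the compound JM03 and in control animals. The genes were taken by name from the deposited expression table, which holds 46778 genes, and all 10 were found there and could be tested. They are the S-adenosylmethionine synthetase genes *sams-1*, *sams-3* and *sams-4*, the methionine synthase gene *metr-1*, the folate reductase gene *mthf-1*, the S-adenosylhomocysteine hydrolase gene *ahcy-1*, the transsulfuration genes *cbs-1* and *cth-2*, and the phosphoethanolamine methyltransferase genes *pmt-1* and *pmt-2*. There were 6 RNA libraries, of which 3 were from the JM03 group and 3 from the control group. JM03 is named in the series title as a derivative of crotamiton that prolongs life. The strain, the age of the animals, the dose and how long it was given are not stated in the sources used here. Nor do the labels say whether replicates were separate cultures, so p-values measure the spread between these libraries, which may be technical.

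The methionine cycle makes S-adenosylmethionine (SAM), the methyl donor of most methylations in the cell. SAM synthetase joins methionine to ATP. Once the methyl group has been passed on, S-adenosylhomocysteine is left, and AHCY-1 splits it to homocysteine. Homocysteine is either methylated back to methionine by METR-1, which needs vitamin B12 and a methyl group from folate, or led through cystathionine to cysteine. In *C. elegans* a large user of SAM is the pair PMT-1 and PMT-2, which methylate phosphoethanolamine stepwise to phosphocholine, the head group of phosphatidylcholine. Loss of *sams-1* is known in this animal to lower phosphatidylcholine, to raise fat stores through the lipid regulator SBP-1 and to lengthen life.

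Levels are given as TPM, a share of all transcripts that is scaled for transcript length and can be compared between genes. TPM does not keep the number of reads, and the depth of each library is unknown. Fold changes are differences of mean log2(TPM + 1), JM03 minus control, which understates the change of low genes. limma tested the 12912 genes that reached 1 TPM in 3 or more libraries, and genes with a Benjamini-Hochberg adjusted p below 0.05 are named as called. One library, control replicate 3, was unlike the rest. Over all tested genes its median deviation from the middle of the 6 libraries was -0.75 on the log2 scale, against -0.0062 to 0.032 in the others. Its deviations also ran lower in longer transcripts (Spearman correlation across genes -0.548, where genes are not independent), so fold changes are also given without it. The log2 fold changes shifted with it, their median over all tested genes being 0.35 with and 0.046 without this library.

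None of the 10 genes was called with the 6 libraries or without control replicate 3, where 0.132% of all tested genes were called in either fit. At an unadjusted limma p below 0.05 there was 1 gene with the 6 libraries, *pmt-2*, and there were 3 without control replicate 3, *ahcy-1*, *cth-2* and *pmt-1*. The same threshold was passed by 11.7% and 19.5% of all tested genes. All 10 log2 fold changes were positive when the 6 libraries were fitted, as were 72.7% of those of all tested genes. Without control replicate 3 there were 8 positive, against 56.5% of all tested genes. The exceptions were *mthf-1* and *ahcy-1*, and *ahcy-1* was also negative after quantile normalization. The largest were those of the phosphocholine genes *pmt-1* and *pmt-2* and of *sams-1*. In 9 of the 10 genes control replicate 3 was the lowest library, as it was in 64.7% of all tested genes.

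**Figure D1:**
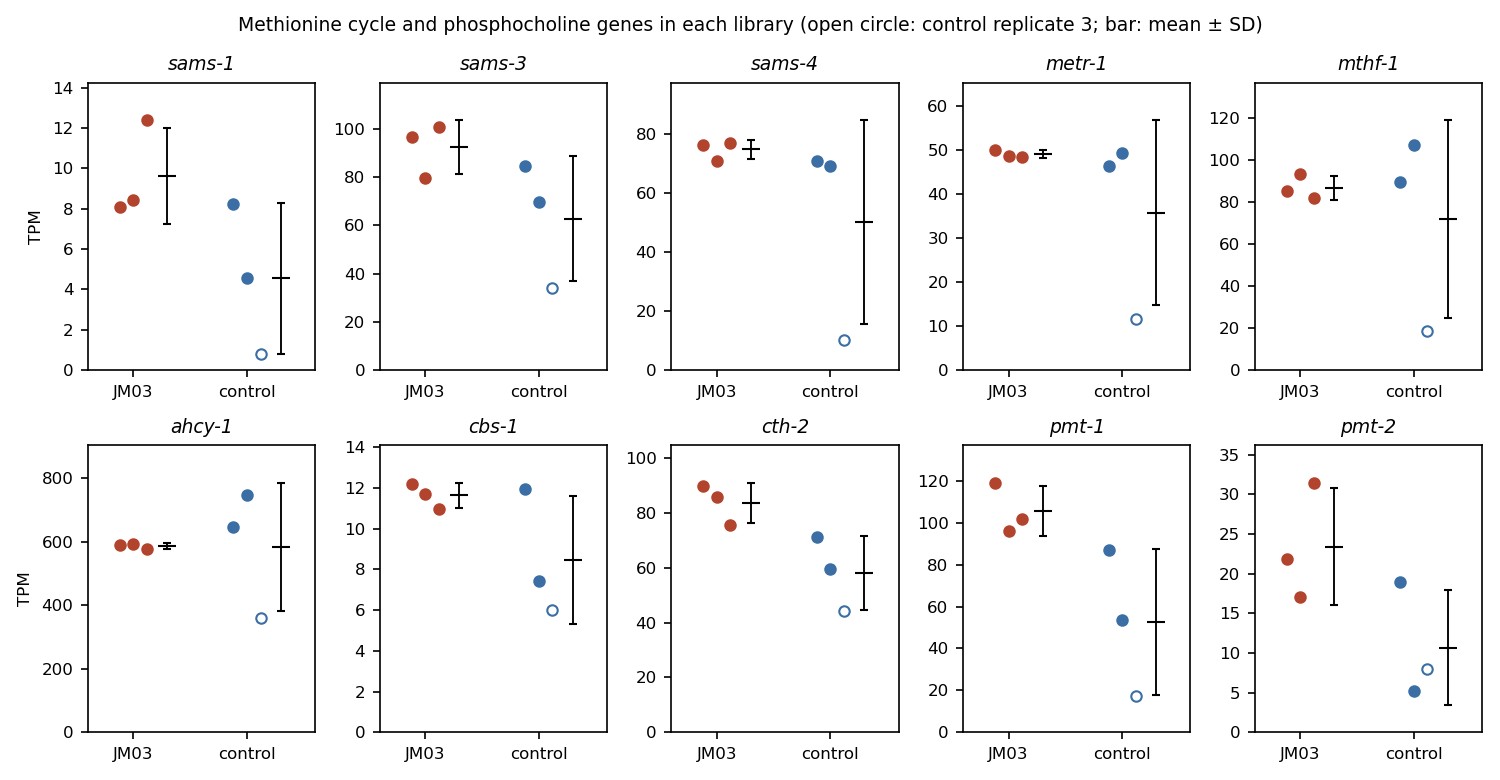
TPM of each of the 10 genes in the 3 JM03 libraries (left, red) and the 3 control libraries (right, blue), each panel with its own axis from 0. Open circles are control replicate 3 and black bars the mean ± SD (n = 3 each). In *sams-4*, *cth-2* and *pmt-1* every JM03 library lay above every control library, and in *sams-4* control replicates 1 and 2 lay close to the JM03 libraries.

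Most SAM synthetase transcripts came from *sams-3* and *sams-4*. These neighbours on chromosome IV (*sams-4* at 5844061 to 5846369 on the minus strand, *sams-3* at 5848657 to 5850843 on the plus strand, WBcel235) point away from each other across 2287 bases. Their coding sequences are close copies, so reads may be split between them and the value of either is uncertain. *sams-3* (WBGene00015538) was at 96.50, 79.70 and 100.84 TPM in JM03 replicates 1 to 3 and at 84.62, 69.55 and 34.20 TPM in control replicates 1 to 3. The groups overlapped, since control replicate 1 was above JM03 replicate 2. Its log2 fold change was 0.64 ± 0.387 (SE; 95% confidence interval -0.28 to 1.56, limma adjusted p = 0.49), and 0.26 without control replicate 3 (-0.096 to 0.61, limma adjusted p = 0.336).

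*sams-4* (WBGene00015540) was at 76.27, 70.77 and 76.81 TPM in JM03 and at 70.64, 69.07 and 10.17 TPM in control. Every JM03 library was above every control library, but JM03 replicate 2 exceeded control replicate 1 by a small margin and only control replicate 3 was far below. The log2 fold change was 0.98 ± 0.724 (SE; limma adjusted p = 0.492), and 0.093 without that library (95% confidence interval -0.083 to 0.27, limma adjusted p = 0.45). The ratio of *sams-3* to *sams-4* was 1.27, 1.13 and 1.31 in JM03 and 1.20, 1.01 and 3.36 in control. Only in control replicate 3 were the copies far apart.

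*sams-1* (WBGene00008205, chromosome X, 11965962 to 11969893) was the lowest of the 10 genes in mean TPM, at 8.09, 8.44 and 12.37 TPM in JM03 and at 8.25, 4.59 and 0.80 TPM in control. Control replicate 1 stood among the JM03 libraries, and the other controls were lower. Its log2 fold change was 1.21 ± 0.602 (SE; 95% confidence interval -0.22 to 2.64, limma adjusted p = 0.471), and 0.54 without control replicate 3 (-0.22 to 1.31, limma adjusted p = 0.346). *sams-1* made up 4.21%, 4.86% and 6.25% of the summed TPM of the SAM synthetase genes, *sams-5* included, in JM03, and 4.38%, 2.49% and 1.23% in control.

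The remaining synthetase gene, *sams-5* (WBGene00006416, chromosome IV, 6277433 to 6279522), is not among the 10 and ran the other way. It was at 11.15, 14.83 and 7.97 TPM in JM03 and at 24.73, 41.15 and 19.63 TPM in control, so that every JM03 library was below every control library, as in 9.41% of all tested genes. Its log2 fold change was -1.23 ± 0.40 (SE; 95% confidence interval -2.18 to -0.28, limma adjusted p = 0.321), and -1.46 without control replicate 3 (limma adjusted p = 0.233), and it was not called in either. Its share of the summed SAM synthetase TPM was 5.81%, 8.54% and 4.03% in JM03 and 13.1%, 22.3% and 30.3% in control. The summed level of all 4 synthetase genes was 192, 174 and 198 TPM in JM03 and 188, 184 and 64.8 TPM in control. The sums of control replicates 1 and 2 lay within the range of the JM03 libraries, and that of control replicate 3 was far below.

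**Figure D2:**
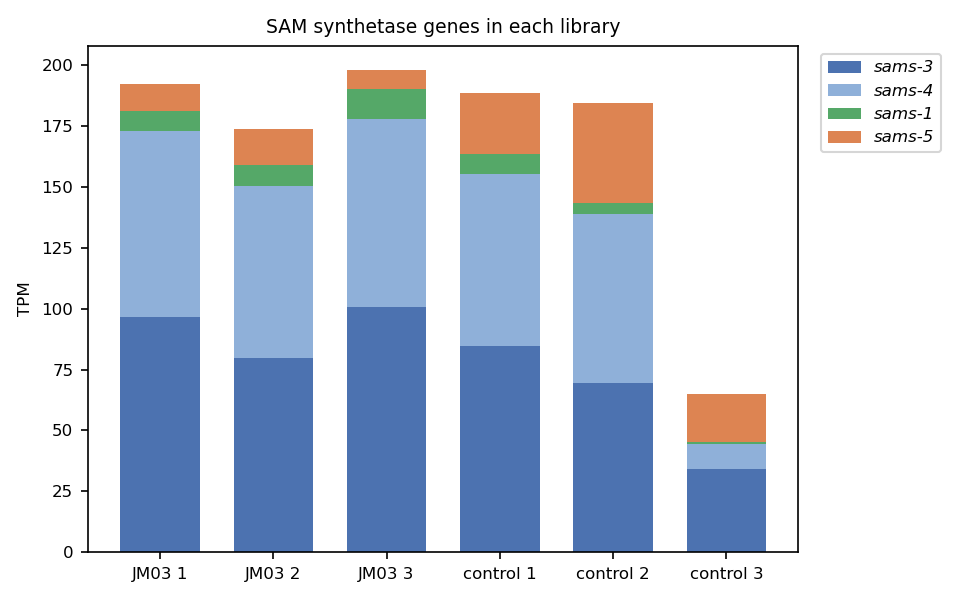
Stacked TPM of the SAM synthetase genes *sams-3*, *sams-4*, *sams-1* and *sams-5* in each library, JM03 replicates on the left and control replicates on the right. The *sams-5* segment took 4.03% to 8.54% of the bar in JM03 libraries and 13.1% to 30.3% in control libraries, and the bar of control replicate 3 (64.8 TPM) was the shortest.

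Of the genes that return homocysteine to methionine, *metr-1* was nearly level apart from control replicate 3. *metr-1* (WBGene00010988, chromosome II, 10926561 to 10931078), the B12-dependent methionine synthase, was at 50.05, 48.70 and 48.44 TPM in JM03 and at 46.40, 49.28 and 11.67 TPM in control. Control replicates 1 and 2 lay on either side of JM03 replicates 2 and 3. The log2 fold change was 0.68 ± 0.563 (SE; limma adjusted p = 0.503), and 0.036 without control replicate 3, with a 95% confidence interval of -0.14 to 0.21 (limma adjusted p = 0.763). At 3948 nt *metr-1* has the longest transcript of the 10.

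*mthf-1* (WBGene00015512, chromosome II, 7773904 to 7777823) encodes methylenetetrahydrofolate reductase, which makes the methyl folate that METR-1 uses. It was at 85.06, 93.11 and 81.98 TPM in JM03 and at 89.63, 107.26 and 18.42 TPM in control. The direction depended on control replicate 3, which was the lowest library while control replicate 2 was the highest. The log2 fold change was 0.61 ± 0.647 with the 6 libraries and -0.18 ± 0.107 without that library (SE; limma adjusted p = 0.563 and 0.371). *mtrr-1*, whose product restores inactivated methionine synthase, was at 46.81, 46.82 and 44.99 TPM in JM03 and at 41.65, 43.78 and 23.87 TPM in control, close to *metr-1* in level (log2 fold change of 0.38, limma adjusted p = 0.514). In *mtrr-1* every JM03 library was above every control library, as in 21.9% of all tested genes, though 44.99 and 43.78 TPM lay close. The log2 fold change of *mtrr-1* was 0.11 without control replicate 3 and -0.13 with the trend on transcript length removed.

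*ahcy-1* (WBGene00019322, chromosome I, 6836469 to 6838140), whose product removes the S-adenosylhomocysteine that inhibits methyltransferases, was the most abundant of the 10. It was at 591.59, 592.52 and 577.10 TPM in JM03 and at 647.69, 747.70 and 359.91 TPM in control. The JM03 libraries were close together and lay below control replicates 1 and 2 and above control replicate 3. Its log2 fold change was 0.071 ± 0.293 (SE; limma adjusted p = 0.877) and turned to -0.25 without control replicate 3 (95% confidence interval -0.47 to -0.017, limma adjusted p = 0.242). It was also negative after quantile normalization (-0.099) and with the trend on transcript length removed (-0.32). Among all tested genes 18.5% had every JM03 library below control replicates 1 and 2. Set against the sum of *sams-1*, *sams-3* and *sams-4*, *ahcy-1* had a ratio of 3.27, 3.73 and 3.04 in JM03 and of 3.96, 5.22 and 7.97 in control. The groups did not overlap in this ratio, but 3.73 in JM03 replicate 2 was close to 3.96 in control replicate 1. Because the ratio was chosen with the values of its genes known, its p carries no weight (exact permutation p = 0.1, two-sided, the smallest that 3 against 3 libraries allow).

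In transsulfuration, cystathionine beta-synthase joins homocysteine to serine and cystathionine gamma-lyase releases cysteine. *cbs-1* (WBGene00013866, chromosome X, 10054275 to 10057528) was at 12.21, 11.72 and 10.97 TPM in JM03 and at 11.97, 7.42 and 6.0 TPM in control. Control replicate 1 was within the JM03 range and the other controls below it. The log2 fold change was 0.47 ± 0.328 (SE; limma adjusted p = 0.49), and 0.27 without control replicate 3 (95% confidence interval -0.29 to 0.83, limma adjusted p = 0.484). With the trend on transcript length removed it was -0.058.

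*cth-2* (WBGene00022856, chromosome II, 7056184 to 7057960), which encodes a cystathionine gamma-lyase, was at 89.67, 85.63 and 75.40 TPM in JM03 and at 71.00, 59.34 and 44.13 TPM in control. Every JM03 library was above every control library, and control replicate 3 was less far from the others than in most of the 10 genes. The log2 fold change was 0.54 ± 0.289 (SE; 95% confidence interval -0.15 to 1.22, limma adjusted p = 0.478), and 0.36 ± 0.117 without control replicate 3 (0.061 to 0.65, limma adjusted p = 0.233). The second gene of this enzyme, *cth-1* (WBGene00009048), was far lower, at 4.59, 3.16 and 4.76 TPM in JM03 and at 1.86, 1.57 and 1.27 TPM in control. Its groups did not overlap either, with JM03 above control as in 21.9% of all tested genes (log2 fold change 1.00 ± 0.256, limma adjusted p = 0.306, and 0.92 without control replicate 3). The second cystathionine beta-synthase gene, *cbs-2* (WBGene00018783), lay lower in JM03, at 3.74, 5.68 and 2.58 TPM, than in control, at 7.05, 11.64 and 10.68 TPM (log2 fold change -1.13 ± 0.351, limma adjusted p = 0.307, and -1.06 without control replicate 3). Neither was called.

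The methyltransferase genes of phosphocholine synthesis had, with *sams-1*, the largest ratios of mean TPM between JM03 and control, at 2.01 for *pmt-1*, 2.19 for *pmt-2* and 2.12 for *sams-1*. Against control replicates 1 and 2 alone these ratios were 1.5, 1.95 and 1.5. *pmt-1* (WBGene00022781, chromosome II, 5278090 to 5282523), whose product adds the first methyl group, was at 119.01, 95.85 and 101.54 TPM in JM03 and at 86.92, 53.58 and 17.27 TPM in control. Every JM03 library was above every control library, and the controls were spread widely. It averaged 105 ± 12.1 TPM in JM03 and 52.6 ± 34.8 TPM in control (SD, n = 3 each). The log2 fold change was 1.25 ± 0.57 (SE; 95% confidence interval -0.098 to 2.61, limma adjusted p = 0.452). Without control replicate 3 this was 0.61 ± 0.221 (0.057 to 1.17, limma adjusted p = 0.238).

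*pmt-2* (WBGene00018811, chromosome V, 4628580 to 4635263), whose product carries out the later methylations, was at 21.80, 17.01 and 31.48 TPM in JM03 and at 18.90, 5.18 and 7.97 TPM in control. Control replicate 1 stood between JM03 replicates 2 and 1, and its lowest library was control replicate 2, unlike any other of the 10 genes. Its log2 fold change was 1.20 ± 0.501 (SE; 95% confidence interval 0.0094 to 2.39, limma adjusted p = 0.422) and stayed at 1.10 without control replicate 3 (-0.28 to 2.47, limma adjusted p = 0.309). The ratio of *pmt-1* to *pmt-2* was 5.46, 5.63 and 3.23 in JM03 and 4.60, 10.3 and 2.17 in control. The ratio therefore varied more among the controls than between the groups (exact permutation p = 0.9, two-sided).

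**Figure D3:**
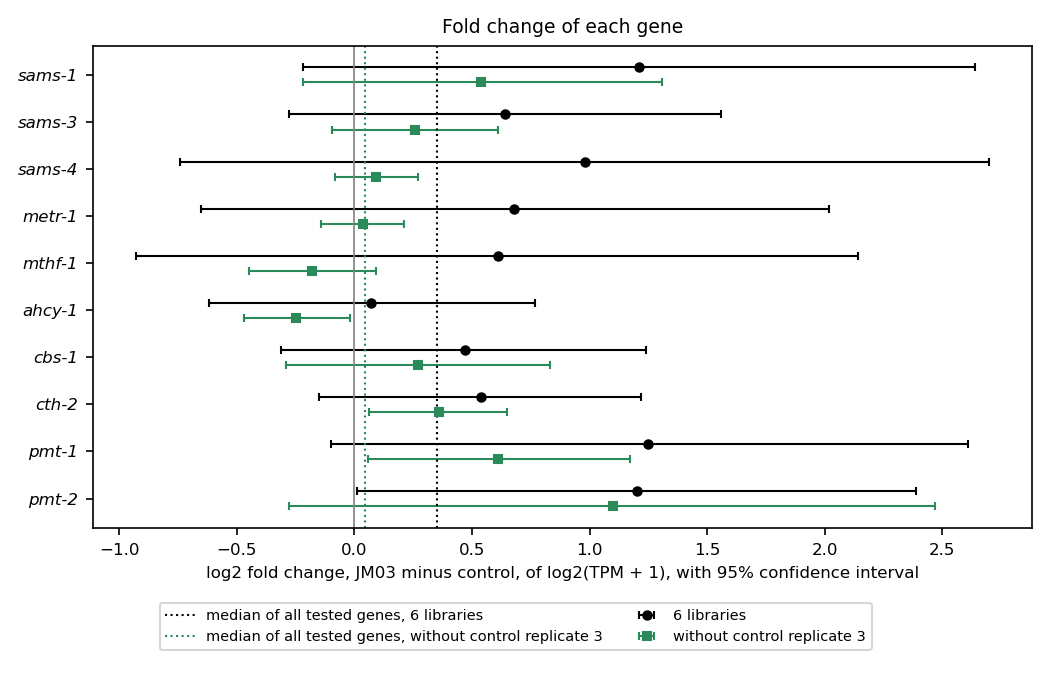
Log2 fold change (JM03 minus control) of each of the 10 genes with its 95% confidence interval from limma, with the 6 libraries (black circles) and without control replicate 3 (green squares). Dotted lines are the medians over all tested genes (0.35 and 0.046). The intervals of *sams-4*, *metr-1* and *mthf-1* narrowed most without control replicate 3, and that of *pmt-2* did not.

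The groups were separate in few of the 10 genes. In *sams-4*, *cth-2* and *pmt-1*, 3 of the 10, every JM03 library was above every control library, as in 21.9% of all tested genes. Without control replicate 3 these 3 were again above both remaining controls, as were 23.7% of all tested genes, and *ahcy-1* was below both. The share of the 10 genes is close to these backgrounds. Array quality weights ran from 0.0304 for control replicate 3 to 6.46 for JM03 replicate 1, which was the highest library for both *pmt-1* and *cth-2*. With these weights limma called *pmt-1* and *cth-2* (log2 fold changes 0.87 and 0.47, adjusted p = 0.0284 and 0.0369). That fit called 17.1% of all tested genes, and over the other alternatives the limma adjusted p of both genes ran up to 0.72. The exact permutation test of a single gene reached its smallest possible p of 0.1 for *sams-4*, *cth-2* and *pmt-1*.

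The order of mean TPM in JM03 was *ahcy-1* at 587 ± 8.65, *pmt-1* at 105 ± 12.1, *sams-3* at 92.3 ± 11.2, *mthf-1* at 86.7 ± 5.75, *cth-2* at 83.6 ± 7.36, *sams-4* at 74.6 ± 3.34, *metr-1* at 49.1 ± 0.864, *pmt-2* at 23.4 ± 7.37, *cbs-1* at 11.6 ± 0.625 and *sams-1* at 9.63 ± 2.38 TPM (SD, n = 3). From *pmt-1* to *sams-4* each gene overlapped its neighbour in the order, as did *cbs-1* and *sams-1*, and the other neighbours did not overlap. In control the means were 585 ± 201 TPM for *ahcy-1*, 71.8 ± 47.0 for *mthf-1*, 62.8 ± 25.9 for *sams-3*, 58.2 ± 13.5 for *cth-2*, 52.6 ± 34.8 for *pmt-1*, 50.0 ± 34.5 for *sams-4*, 35.8 ± 20.9 for *metr-1*, 10.7 ± 7.25 for *pmt-2*, 8.46 ± 3.12 for *cbs-1* and 4.55 ± 3.73 for *sams-1*. The SDs of the controls were larger than those of JM03 in every gene except *pmt-2*, where they were alike. Summed over the 10 genes, the level was 1150, 1103 and 1117 TPM in JM03 and 1136, 1173 and 511 TPM in control. Without *ahcy-1* the sum was 559, 511 and 540 TPM in JM03 and 488, 425 and 151 TPM in control. These sums did not overlap, by a small margin (511 against 488 TPM). However, *ahcy-1* was the only gene of the 10 with every JM03 library below control replicates 1 and 2.

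The 10 genes were not evenly low in control replicate 3. On the log2 scale its deviation from the middle of the 6 libraries was -2.68 for *sams-4*, -2.35 for *sams-1*, -2.34 for *pmt-1*, -2.19 for *mthf-1*, -1.97 for *metr-1*, -1.24 for *sams-3*, -1.08 for *pmt-2*, -0.82 for *cbs-1* and -0.72 for both *ahcy-1* and *cth-2*. The transcripts of the 10 genes run from 1328 nt (*cth-2*) to 3948 nt (*metr-1*). With the trend on transcript length removed, the median log2 fold change of the 10 was 0.23, with 8 of them positive, against a median of 0.035 over all tested genes. Control replicate 2 was the highest library for *ahcy-1* and *mthf-1*, with deviations of 0.34 and 0.29. Its deviation was -1.62 for *pmt-2*, -0.76 for *pmt-1*, -0.71 for *sams-1*, -0.55 for *cbs-1*, -0.3 for *cth-2*, -0.24 for *sams-3*, -0.033 for *sams-4* and 0.021 for *metr-1*. Control replicate 1 lay within 0.13 of the middle in each of the 10 genes.

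Genes around these 10 were described in lists of the same pathways, and no gene of any list was called with the 6 libraries or without control replicate 3. Of 13 tested genes of folate and methionine cycle enzymes, 12 were positive and the median log2 fold change was 0.38 (9 and 0.074 without control replicate 3), and 2 passed an unadjusted limma p of 0.05. These were *sams-5* and *dao-3*, whose product interconverts one-carbon forms of folate. *dao-3* was at 19.88, 20.02 and 22.30 TPM in JM03 and at 13.77, 11.03 and 10.50 TPM in control. Every JM03 library was above every control library, as in 21.9% of all tested genes (log2 fold change 0.77 ± 0.287, limma adjusted p = 0.374, and 0.70 without control replicate 3). Of 15 tested genes of transsulfuration and sulfur use, 13 were positive with a median of 0.50 (12 and 0.17), and 2 passed the unadjusted threshold, *cth-1* and *cbs-2*.

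Phosphatidylcholine and phosphatidylethanolamine synthesis had 15 tested genes, 13 of them positive with a median of 0.74 (12 and 0.28 without control replicate 3). *cept-1*, encoding a choline and ethanolamine phosphotransferase of the last step, was at 6.47, 6.04 and 5.55 TPM in JM03 and at 4.83, 2.48 and 0.65 TPM in control. *snf-3*, encoding a transporter of the methyl-rich compound betaine, was at 5.68, 4.65 and 5.19 TPM in JM03 and at 3.82, 2.15 and 0.97 TPM in control. In both genes every JM03 library was above every control library, as in 21.9% of all tested genes. Both passed the unadjusted threshold but not the adjusted one (1.12 for *cept-1* with limma adjusted p = 0.422, and 0.99 for *snf-3* with limma adjusted p = 0.376, on the log2 scale). Without control replicate 3 the log2 fold changes were 0.64 and 0.66.

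The lipid regulator gene *sbp-1* and lipogenic genes, 10 tested, were all positive with a median of 0.74, and 6 were positive with a median of 0.23 without control replicate 3. None passed an unadjusted limma p of 0.05 with the 6 libraries. *sbp-1* itself was at 7.32, 7.40 and 6.77 TPM in JM03 and at 7.14, 5.62 and 1.01 TPM in control, with a log2 fold change of 0.78 (limma adjusted p = 0.49) and of 0.15 without control replicate 3. *fat-7*, a stearoyl-CoA desaturase gene that SBP-1 activates, was at 18.17, 10.60 and 17.74 TPM in JM03 and at 26.25, 10.68 and 9.69 TPM in control. The highest library for *fat-7* was a control, and its log2 fold change turned from one sign to the other between the fits (0.098 and -0.15, limma adjusted p = 0.894 and 0.848). *fasn-1*, the fatty acid synthase gene, and *elo-2*, a fatty acid elongase gene, had the smallest p of this list (0.99 for *fasn-1* and 1.12 for *elo-2* on the log2 scale, limma adjusted p = 0.464 and 0.469, against 0.49 and 0.61 without control replicate 3).

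Of the genes for vitamin B12 use and the nuclear receptors listed with them, 10 of 11 were tested. All 10 were positive with a median of 0.72 (8 and 0.17 without control replicate 3), and none passed the unadjusted threshold. *nhr-114*, encoding a receptor known to activate genes of the cycle, was at 2.41, 2.26 and 2.95 TPM in JM03 and at 2.85, 1.67 and 3.18 TPM in control. The difference on the log2 scale was 0.01 (limma adjusted p = 0.981), and -0.2 after quantile normalization. Its highest library was control replicate 3, so it did not share that library's low values. *acdh-1*, which rises when vitamin B12 is short, was below the filter at 0.23, 0.07 and 1.09 TPM in JM03 and at 0.34, 0.31 and 0.54 TPM in control and was not tested. *nhr-68*, a receptor gene of the response to propionate, and the transporter gene *pmp-5* had the smallest p of this list (0.87 for *nhr-68* and 0.60 for *pmp-5* on the log2 scale, limma adjusted p = 0.486 and 0.474). Without control replicate 3 the value was 0.40 for *nhr-68* and 0.56 for *pmp-5*.

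Among 19 tested methyltransferases that use SAM, 14 were positive with a median of 0.46, and 9 were positive with a median of -0.0074 without control replicate 3. *comt-4* (WBGene00021491), of the catechol O-methyltransferase family, had the smallest p of all the lists. It was at 15.15, 7.99 and 12.52 TPM in JM03 and at 42.40, 31.23 and 46.46 TPM in control. Every JM03 library was below every control library, as in 9.41% of all tested genes, and the gene was not called (log2 fold change -1.69 ± 0.359, limma adjusted p = 0.306, and -1.58 without control replicate 3). *anmt-2*, of the nicotinamide methyltransferase family, had a log2 fold change of 0.69 (limma adjusted p = 0.49), and of 0.54 without control replicate 3. Positive log2 fold changes made up 72.7% of all tested genes when the 6 libraries were fitted and 56.5% without control replicate 3. The median of the 10 genes themselves was 0.66 and 0.26 in these fits. With array quality weights limma called 2 of the 13 tested genes of the folate and methionine list (*dao-3* at 0.74 and *sams-5* at -1.60), 3 of the 15 of the transsulfuration list (2 of them *cth-1* at 1.01 and *cbs-2* at -1.22), 2 of the 15 of the phosphatidylcholine and phosphatidylethanolamine list (*snf-3* and *cept-1*, both at 0.86) and 1 of the 19 methyltransferases (*comt-4* at -1.31). In the lipogenic and vitamin B12 lists it called none of 10 genes each. Of all tested genes that fit called 17.1%. The limma adjusted p of these 7 named genes was 0.022 to 0.0348 in that fit and ran up to 0.72 over the other alternatives.

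**Figure D4:**
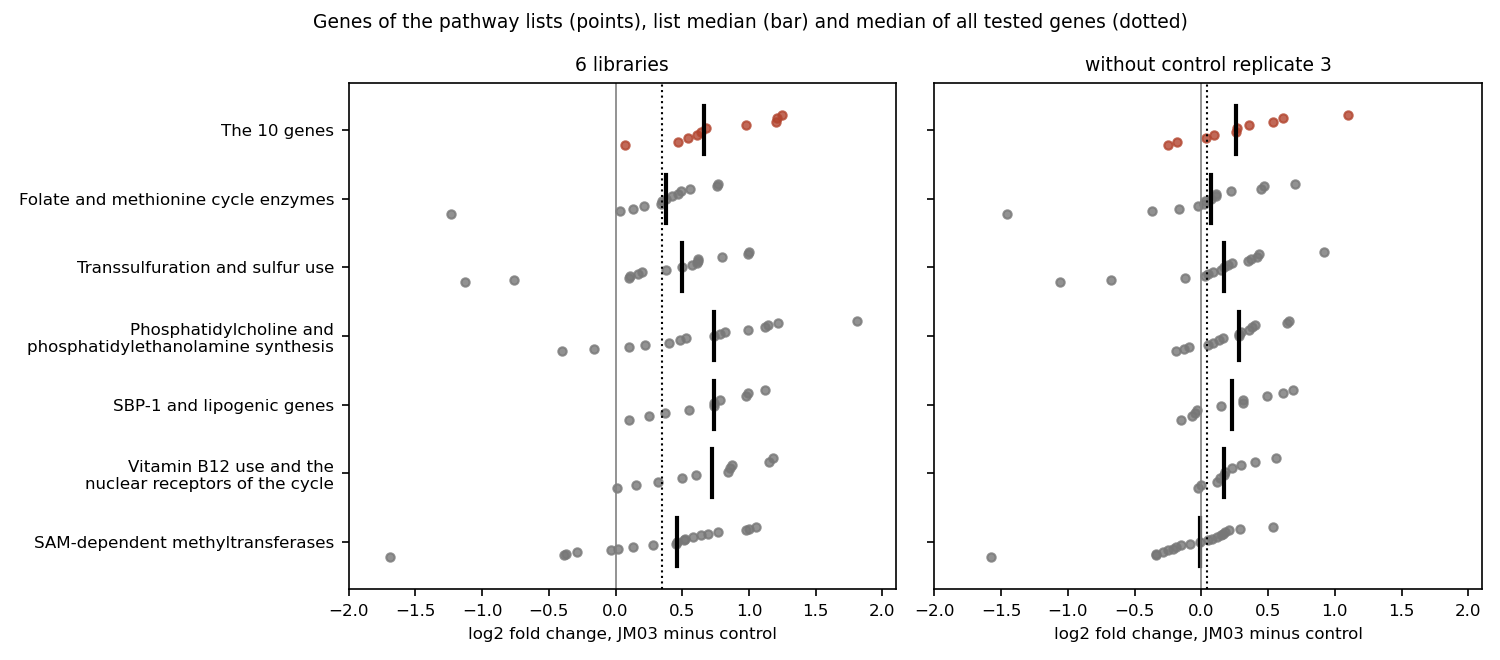
Log2 fold change (JM03 minus control) of each tested gene in the 10 genes (red, top) and in 6 lists of the surrounding pathways (grey), with the 6 libraries on the left and without control replicate 3 on the right. Bars are list medians and dotted lines the medians of all tested genes (0.35 and 0.046). The list medians ran from 0.38 to 0.74 on the left and from -0.0074 to 0.28 on the right.

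Markers of several tissues differed between libraries. The 10 intestine markers in the table summed to 2024 to 2666 TPM in JM03 and to 1019 to 2150 TPM in control, and the 13 oocyte and germ line markers to 5495 to 6530 TPM in JM03 and to 1663 to 5537 TPM in control. The 9 body wall muscle markers summed to 806, 636 and 1239 TPM in JM03 and to 758, 378 and 496 TPM in control. Across the 6 libraries *pmt-2* had the same order of levels as this muscle sum, highest in JM03 replicate 3 and lowest in control replicate 2. That order rests on *pat-10*, at 172.33 TPM in control replicate 2 and 346.35 TPM in control replicate 3. Only *pat-10* and *unc-27* (52.54 and 52.62 TPM in these libraries) were lowest in control replicate 2. All other muscle markers were lowest in control replicate 3. In other tissues, *cpr-6* of intestine (163.27 and 246.30 TPM in control replicates 2 and 3) and *col-19* of epidermis (6.45 and 19.83 TPM) were also lowest in control replicate 2. Most intestine and epidermis markers were lowest in control replicate 3. The 9 epidermis markers gave 105 to 214 TPM in JM03 and 31.5 to 108 TPM in control, and the 10 neuron markers 435.06 to 450.36 TPM in JM03 and 234.73 to 417.41 TPM in control. No marker of these lists was at 0 in every library. Some sums came mostly from a single marker, as from *asp-1* in intestine (1378 to 1950.04 TPM in JM03) and *snb-1* in neurons (291.20 to 314.43 TPM in JM03). In whole animals fewer cells of a type and less RNA per cell cannot be told apart, and the part of these tissues in the values of the 10 genes was not tested.

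The 9 sperm markers ran the other way, at 158 to 254 TPM in JM03 and 406 to 835 TPM in control, and each of the 8 tested had a negative log2 fold change. Most of the sum came from *ssp-9*, at 101.85 to 135.09 TPM in JM03 and 249.77 to 634.07 TPM in control. *sams-5*, *cbs-2* and *comt-4* were likewise lower in every JM03 library than in any control library, as were 9.41% of all tested genes. None of the sperm markers was at 0 in every library. Whether sperm had a part in the values of these 3 genes was not tested.

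**Figure D5:**
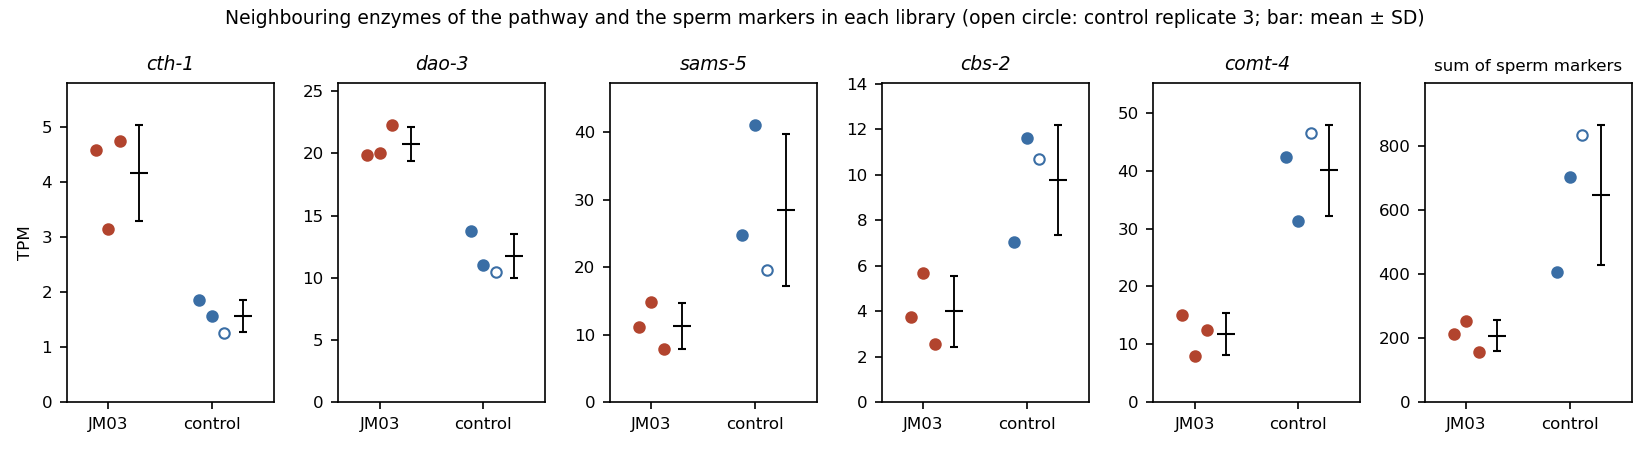
TPM of *cth-1*, *dao-3*, *sams-5*, *cbs-2* and *comt-4*, and of the summed sperm markers, in the 3 JM03 libraries (left, red) and the 3 control libraries (right, blue). Open circles are control replicate 3 and bars the mean ± SD (n = 3 each). No panel has overlapping groups, and in *sams-5*, *cbs-2*, *comt-4* and the sperm markers (158 to 254 TPM against 406 to 835 TPM) JM03 was the lower. The single genes had the smallest p of their lists, a choice that favours separate groups. Among all tested genes 21.9% had every JM03 library above every control library, and 9.41% had every JM03 library below.

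Many genes resembled *sams-1* across the 6 libraries. Of 8651 other protein-coding genes with a mean of at least 5 TPM, 1532 had a Pearson correlation above 0.95 with it in log2(TPM + 1). The nearest were *tag-294*, the cell cycle phosphatase gene *cdc-25.2* and F32D8.14 (0.999, 0.9985 and 0.9985). *cdc-25.2* was at 24.11, 24.01 and 33.69 TPM in JM03 and at 24.45, 16.22 and 4.72 TPM in control. In each of these 3 genes, as in *sams-1*, control replicate 3 was the lowest library and JM03 replicate 3 the highest. A shared order follows from how the genes were picked, and control replicate 3 was the lowest library in 64.7% of all tested genes. For *pmt-2* there were 111 such genes, led by F54F7.2, the cystathionine beta-lyase gene *cbl-1* and B0272.3 (0.9959, 0.9952 and 0.9947). *cbl-1* was at 6.57, 4.92 and 8.05 TPM in JM03 and at 5.99, 2.05 and 2.71 TPM in control. Like *pmt-2*, it was highest in JM03 replicate 3 and lowest in control replicate 2, which again follows from how it was picked.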

How the data were processed

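The authors deposited 1 table of TPM values per gene for 6 libraries. The unit was taken from the values, whose columns sum to 997816 to 998884. The submitters' processing notes name fastp, HISAT and RSEM, and WBcel235 as build. Versions, settings and strandedness were not given in the sources used here. Since strand is unknown, the 8 to 18 bases of exon that *sams-3*, *mthf-1* and *cth-2* share with a gene on the opposite strand cannot be assigned. Coordinates and transcript lengths are from the WBcel235 annotation.

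TPM were analysed as log2(TPM + 1) with limma 3.58.1 (trend and robust prior) in R 4.3.3, without a replicate block, and p-values were adjusted over the 12912 tested genes. The step was tested on simulated data with noise drawn separately for each gene, unlike the shared shift of control replicate 3. Columns of libraries were matched to groups by their titles. Alternatives were quantile normalization, other filters and pseudocount, a non-robust prior, the block, array quality weights, rescaled protein-coding genes, a loess trend on transcript length removed, and each library left out. The length trend removed without control replicate 3 was added after seeing the data. Members and lists were chosen with earlier results of these data known. The text names the 10 genes, of each list any called gene and the 2 genes of smallest p, 7 genes chosen by name (2 of which also have the smallest p of a list), and the 3 genes closest in pattern to *sams-1* and to *pmt-2*. Every pathway gene but *sqrd-2*, and every marker but *opt-2*, was found in the table. Python 3.11.15 and matplotlib 3.10.9 drew the figures.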

Additional observations from a re-analysis of the deposited data

How the results depend on the processing

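The count of called genes, 17 with the 6 libraries, was 5 to 17 with 1 library left out (5, 6 and 10 without JM03 replicates 1, 2 and 3, and 8 without control replicate 2) and 2202 with array quality weights, under which 2 of the 10 genes, *cth-2* and *pmt-1*, were called. Of 160 values of the 10 genes under the alternatives, 149 kept their direction and their side of the threshold. *mthf-1* turned to -0.22 with array quality weights and to -0.22 with the length trend removed and control replicate 3 left out, and lay between -0.18 and 1.06 with 1 library left out. *ahcy-1* turned to -0.099 with quantile normalization, -0.28 with array quality weights, -0.32 with the length trend removed and -0.31 with this and control replicate 3 left out, and lay between -0.25 and 0.28 with 1 library left out. *cbs-1* turned to -0.058 and *mtrr-1* to -0.13 with the length trend removed. *nhr-114* was -0.2 with quantile normalization, -0.016 with rescaled protein-coding genes, -0.35 with the length trend removed and between -0.19 and 0.14 with 1 library left out. *fat-7* was -0.22 with quantile normalization, -0.16 with the length trend removed, -0.2 with this and control replicate 3 left out, and between -0.15 and 0.53 with 1 library left out. The causes of these changes were not tested, and leaving out a library shows only that a value depends on that library. Adding the replicate number to the limma fit as a block left 0 called genes, with 1600 at an unadjusted p below 0.05. In this balanced design the block does not alter a fold change. Deviations from the group means of libraries with the same number had correlations across genes of -0.0203, 0.0795 and -0.146. Those of libraries with different numbers ran from -0.278 to 0.291. With 3 libraries in each group, these values cannot tell whether the numbers pair the libraries. The depth of the libraries is unknown, so the counting error of low genes such as *sams-1* cannot be given.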
